A study of Mus musculus with 18 samples.

Results

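Stmn2, Stmn3, Dcx, Ina, Nefl, Nefm, Gap43, Tubb3 and Mapt, a set of genes for the neuronal cytoskeleton and the growth cone, were followed through the neuronal differentiation of control and HPRT-knockdown mouse embryonic stem cells. Members were the array probes whose gene symbol equals one of these names. All 9 symbols were on the array, which lists 30869 symbols, and they were covered by 15 of its 45281 probes. Mapt had 5 probes, Dcx had 3 and each of the other 7 genes had 1.

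The cells were ESD3, a mouse embryonic stem (ES) cell line of strain 129s2/SvPas, grown as ES cells on primary mouse embryo fibroblast feeders with leukemia inhibitory factor. Control (WT) cells carried a viral vector for a short hairpin RNA against luciferase and knockdown cells carried one against HPRT, the purine salvage enzyme whose loss causes Lesch-Nyhan disease, and both were selected with puromycin. RNA was taken at the ES stage, at the spherical neural mass (SNM) stage and at the final neuronal stage of a dopaminergic differentiation protocol. Each of the 6 conditions was hybridised to 3 Illumina arrays of pooled RNA, so n = 3 stands for 3 arrays of a condition throughout and tests measure the spread between arrays, not between cultures. The question asked was what loss of HPRT does to the neuronal program of these cells.

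Neurons are shaped by microtubules and neurofilaments. Stathmins (Stmn2, Stmn3) bind free tubulin and favour microtubule turnover in the growing axon, doublecortin (Dcx) stabilizes microtubules in migrating and newly born neurons, tau (Mapt) does so along the axon, and Tubb3 is the tubulin isotype used as a general marker of neurons. Neurofilaments are built from light (Nefl) and medium (Nefm) chains together with alpha-internexin (Ina), which appears early in neuronal development. Gap43 is a membrane protein of the growth cone that is made during axon outgrowth and is also found in some glial precursors.

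Values are background-corrected, quantile-normalized signals on the log2 scale. A probe was detected on an array when its detection p was under 0.05, which lay at a log2 signal between 4.67 and 4.99 depending on the array. A change was called when limma's adjusted p was under 0.05 and the fold change at least 1.5. Between 18827 and 22202 probes were detected per array, and arrays of a condition correlated at 0.9889 to 0.9964. The Hprt1 signal was 94.1% lower in knockdown than in control ES cells, 70.5% lower in SNM and 95.4% lower in neuronal cells, each called.

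The cytoskeletal genes split in both directions between the cell types at the SNM stage and were mostly lower in knockdown cells at the neuronal stage. Among ES cells limma called 0 of the 5 genes that could be tested, 2 of which had an unadjusted p under 0.05, while 1.68% of all tested probes were called. In SNM cells, by their brightest probe, 2 of 8 tested genes were called higher in knockdown cells (Mapt and Stmn3) and 2 lower (Nefm and Ina). Of all tested probes 11% were called higher there and 8.9% lower. In neuronal cells 6 of 8 tested genes were called by their brightest probe (Ina, Stmn2, Dcx, Nefm, Mapt and Stmn3), all of them lower, against 13.5% of all tested probes lower and 13.9% higher. The median log2 difference of the tested members at that stage was -1.22, beside 0.01 over all tested probes. In bulk RNA, fewer neurons in the culture and less of these transcripts per neuron cannot be told apart.

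**Figure D1:**
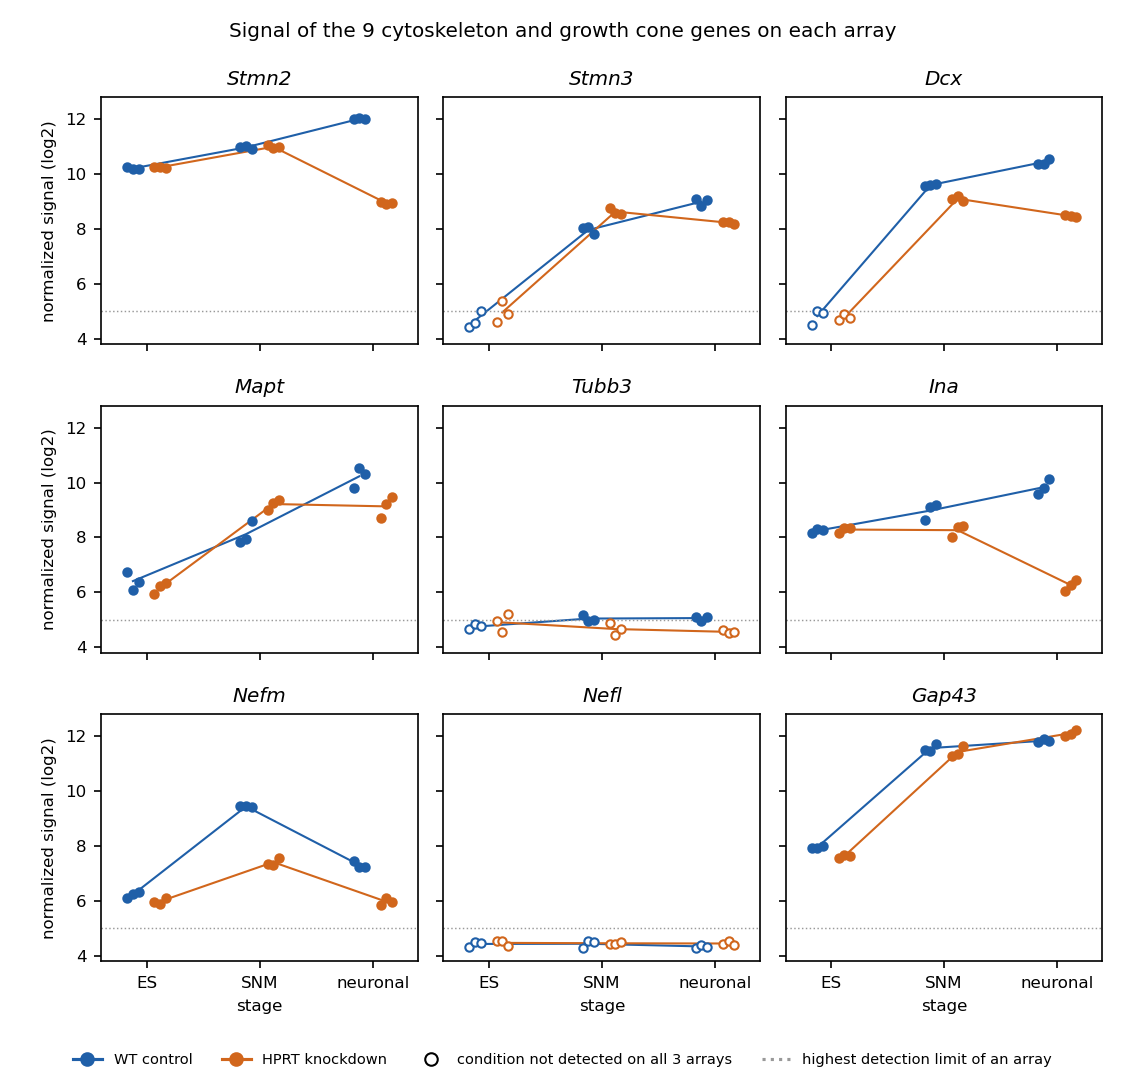
Normalized log2 signal (y axis) of the brightest probe of each gene on each of the 18 arrays, by stage (x axis), for WT control (blue) and HPRT-knockdown cells (orange); lines join the means of 3 arrays, open points mark conditions not detected on all 3 arrays and the dotted line is the highest detection limit of an array, 4.99. Stmn2, Dcx and Ina part most widely at the neuronal stage, Nefm parts at the SNM stage, the cell types lie within 0.32 log2 units of each other for Gap43, and Nefl lies below the detection limit everywhere.

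The RefSeq table of promoters (build GRCm38.p6) held 4 of the 9 members. The 250 bases before the start of the 3 of them that were called lower in knockdown cells at the neuronal stage are shown, to let the upstream sequences of genes that moved together be read side by side. Capitals mark matches, on either strand, to short motifs. A pair of these are E-boxes, the motif of proneural and myogenic basic helix-loop-helix factors (CAGATG, and as the second kind of box CAGCTG). The others are the TATA box spelled TATAAA and the GC box spelled GGGCGG, whose matches on the opposite strand read as CCGCCC here. The last, spelled GGACAG, is a part of the RE1 element bound by the neuronal gene repressor REST. No marked match overlaps another.
Stmn3, chr2:181314501-181314750, minus strand: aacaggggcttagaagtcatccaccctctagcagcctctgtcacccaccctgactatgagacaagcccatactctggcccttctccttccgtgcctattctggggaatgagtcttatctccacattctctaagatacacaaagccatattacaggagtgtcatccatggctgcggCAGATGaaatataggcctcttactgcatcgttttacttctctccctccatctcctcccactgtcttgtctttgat
Dcx, chrX:143933220-143933469, minus strand, upstream of the outermost of its listed starts: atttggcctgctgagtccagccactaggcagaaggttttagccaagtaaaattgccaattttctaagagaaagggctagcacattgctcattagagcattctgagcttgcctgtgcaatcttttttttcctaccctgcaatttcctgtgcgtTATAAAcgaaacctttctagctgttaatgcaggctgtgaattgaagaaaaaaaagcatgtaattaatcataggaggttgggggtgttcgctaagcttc
Ina, chr19:47014431-47014680, plus strand: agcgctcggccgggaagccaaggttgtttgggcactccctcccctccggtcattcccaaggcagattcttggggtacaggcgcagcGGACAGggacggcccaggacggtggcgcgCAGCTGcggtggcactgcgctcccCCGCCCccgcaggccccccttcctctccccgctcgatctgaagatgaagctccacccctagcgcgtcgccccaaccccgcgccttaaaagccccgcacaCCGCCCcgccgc
The 3 windows shared none of these motifs. Stmn3 had the E-box CAGATG 75 bases before the start, and Dcx had TATAAA 98 bases before it. Ina had the other E-box 135 bases, the RE1 part 164 bases and the GC box on the opposite strand 111 and 12 bases before it. The window of Tubb3, which was not called and is not shown, had the GC box on its own strand 138 and 46 bases before the start. Over 32851 windows of the same length, the first E-box was present in 14.4% and the second in 13%. The TATA box was present in 12.4% of them, the GC box in 32.7% and the RE1 part in 18.7%. The matches are a description of letters and not of bound sites.

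Stmn2, on chromosome 3, was strongly expressed from the ES stage on and had the smallest standard error of the tested members. Its 3 control arrays gave 10.26, 10.17 and 10.18 in ES cells, 10.99, 11.01 and 10.93 in SNM cells and 11.99, 12.02 and 12.01 in neuronal cells. The knockdown arrays gave 10.27, 10.26 and 10.21, then 11.04, 10.96 and 10.97, and finally 8.97, 8.90 and 8.94. The cell types thus overlapped at both early stages, and at the neuronal stage all 3 knockdown arrays fell below every ES array. The log2 difference was 0.04 in ES cells (adjusted p = 0.641 from limma) and 0.02 in SNM cells (95% interval -0.08 to 0.12). In neuronal cells it was -3.07 ± 0.05 (SE), an 8.42-fold difference (adjusted p = 2.44e-17 from limma). Between SNM and neuronal cells Stmn2 rose 2.05-fold in control cells and fell 4.16-fold in knockdown cells.

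Stmn3, on chromosome 2, crossed over between the SNM and neuronal stages. It was near the detection limit in ES cells, where 1 of 3 arrays detected it in each cell type (mean 4.66 in control and 4.95 in knockdown cells). The control SNM arrays gave 8.01, 8.06 and 7.80 and the knockdown SNM arrays 8.74, 8.59 and 8.55, all 3 higher. The order was turned among neuronal cells, with 9.10, 8.82 and 9.05 in control and 8.25, 8.24 and 8.18 in knockdown cells. The log2 difference was 0.67 ± 0.16 (SE) in SNM cells (adjusted p = 0.00258 from limma) and -0.77 ± 0.16 in neuronal cells (adjusted p = 0.000694). The SNM difference was just over the 1.5-fold limit, and it was 0.58 or 0.55 and not called when the background was left in the signals.

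Dcx, on the X chromosome, rose 27.4-fold in control and 20.1-fold in knockdown cells between the ES and SNM stages. Its brightest probe was detected on 2 of 3 control and 1 of 3 knockdown ES arrays, with means of 4.82 and 4.77. The control arrays then gave 9.56, 9.61 and 9.62 in SNM cells and 10.38, 10.38 and 10.55 in neuronal cells. The knockdown arrays gave 9.08, 9.21 and 9.01, then 8.51, 8.47 and 8.42. No array of one cell type reached the other's values at either stage. The log2 difference among SNM cells was -0.50 (adjusted p = 0.00119 from limma), which is 1.41-fold and under the limit for a call, and among neuronal cells -1.97 ± 0.11 (SE), or 3.92-fold (adjusted p = 1.9e-10). Over the last step Dcx rose 1.79-fold in control cells and fell 1.55-fold in knockdown cells. The second Dcx probe gave log2 differences of -0.31 (not called) and -1.93 at the SNM and neuronal stages, and the third was detected on no array.

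Mapt, on chromosome 11 by the annotation of 4 of its 5 probes, is the member whose probes disagreed. The brightest probe, which has no chromosome listed, was detected on all 18 arrays. It gave 7.83, 7.93 and 8.60 in control and 9.02, 9.27 and 9.37 in knockdown SNM cells, and 9.81, 10.55 and 10.32 in control and 8.71, 9.20 and 9.49 in knockdown neuronal cells. The knockdown arrays were thus all higher at the SNM stage and all lower at the neuronal stage, although the arrays of a condition spread widely for this probe (SD 0.18 to 0.42 at these stages). The log2 difference was 1.10 ± 0.24 (SE) in SNM cells (adjusted p = 0.00123 from limma) and -1.10 ± 0.24 in neuronal cells (adjusted p = 0.000994).

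The second Mapt probe moved the other way at the neuronal stage. It gave 5.00, 5.45 and 5.19 in control and 6.75, 7.15 and 7.68 in knockdown cells, a log2 difference of 1.98 ± 0.20 (SE, adjusted p = 2.66e-07 from limma), and all 3 knockdown arrays were higher. Among SNM cells the same probe differed by 0.39 (adjusted p = 0.105). This probe and the brightest one are annotated to successive versions of the same RefSeq transcript. The third probe, annotated to another Mapt transcript, differed by -0.27 at the neuronal stage (adjusted p = 0.351), and the other two were detected on no array. A single direction for Mapt at the neuronal stage therefore depended on the probe, and the mean over its probes gave a log2 difference of 0.20, not called.

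**Figure D2:**
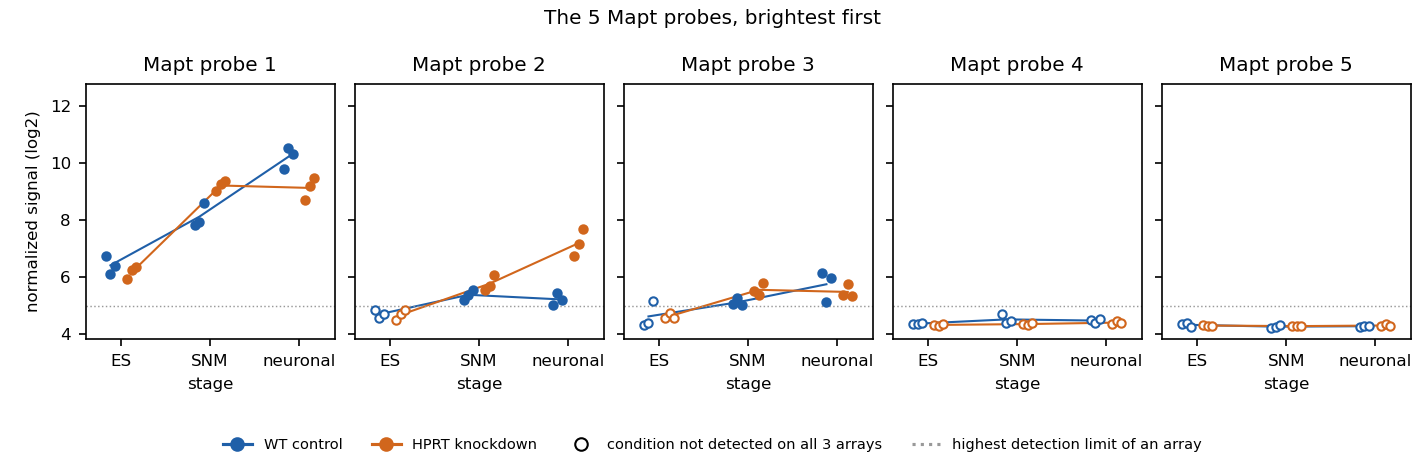
Normalized log2 signal (y axis) of the 5 Mapt probes, from the brightest (probe 1) to the dimmest (probe 5), on each array by stage (x axis), for WT control (blue) and HPRT-knockdown cells (orange); lines join means of 3 arrays and open points mark conditions not detected on all 3 arrays. At the neuronal stage the knockdown mean lies below the control mean for probe 1 (9.13 and 10.23) and above it for probe 2 (7.19 and 5.21).

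Tubb3, on chromosome 8, stayed at the detection limit on this array. Condition means lay between 4.56 and 5.06, and detection on all 3 arrays was reached only in control SNM and control neuronal cells. The control neuronal arrays gave 5.11, 4.97 and 5.10, and the knockdown neuronal arrays, on none of which it was detected, gave 4.61, 4.51 and 4.55. The control signal was at least 1.24-fold higher, with a fitted log2 difference of -0.50 for knockdown over control (adjusted p = 0.00504 from limma), below the fold needed for a call. Among SNM cells the difference was -0.38 (adjusted p = 0.0286).

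The neurofilament genes did not move as one group. Ina, on chromosome 19, was detected on all 18 arrays and already present in ES cells, where it averaged 8.24 in control and 8.29 in knockdown cells. The control SNM arrays gave 8.65, 9.10 and 9.20 and the knockdown SNM arrays 8.02, 8.36 and 8.41. The control neuronal arrays gave 9.59, 9.78 and 10.12 and the knockdown neuronal arrays 6.05, 6.27 and 6.46. Ina thus rose at each step in control cells, whereas in knockdown cells the log2 difference between SNM and ES was -0.02 (95% interval -0.35 to 0.31) and all 3 neuronal arrays lay below every ES array. The log2 difference between cell types was -0.72 ± 0.15 (SE) in SNM cells (adjusted p = 0.00107 from limma) and -3.57 ± 0.15 in neuronal cells, 11.9-fold and the widest of the members (adjusted p = 9.27e-12).

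Nefm, on chromosome 14, peaked at the SNM stage in both cell types and differed there most. The control SNM arrays gave 9.45, 9.45 and 9.43, and the knockdown SNM arrays 7.35, 7.31 and 7.57. In ES cells the means were 6.23 in control and 5.98 in knockdown cells, and at the neuronal stage the arrays gave 7.45, 7.22 and 7.25 in control and 5.85, 6.09 and 5.96 in knockdown cells. The knockdown SNM arrays overlapped the control neuronal arrays, and the knockdown neuronal arrays overlapped the knockdown ES arrays. The log2 difference was -2.03 ± 0.09 (SE) in SNM cells (adjusted p = 3.21e-11 from limma) and -1.34 ± 0.09 in neuronal cells (adjusted p = 1.69e-09). Over the last step Nefm fell 4.4-fold in control and 2.72-fold in knockdown cells, while Ina rose in control cells over the same step. Nefl, also on chromosome 14, had condition means between 4.34 and 4.47 and was detected on none of the 18 arrays, so no test of it was made.

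Gap43, on chromosome 16, was clearly expressed and was not called lower in knockdown cells at the neuronal stage. Its control arrays gave 7.92, 7.92 and 8.01 in ES cells, 11.51, 11.48 and 11.72 in SNM cells and 11.78, 11.92 and 11.82 in neuronal cells. The knockdown arrays gave 7.58, 7.68 and 7.65, then 11.27, 11.36 and 11.66, and finally 12.01, 12.10 and 12.23. The knockdown arrays were all lower in ES cells, overlapped in SNM cells and were all higher in neuronal cells, by small amounts. The log2 differences were -0.32 (adjusted p = 0.039 from limma), -0.14 (adjusted p = 0.219) and 0.28 (adjusted p = 0.0182), none as large as 1.5-fold. Between the ES and SNM stages Gap43 rose 12.3-fold in control and 13.9-fold in knockdown cells.

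**Figure D3:**
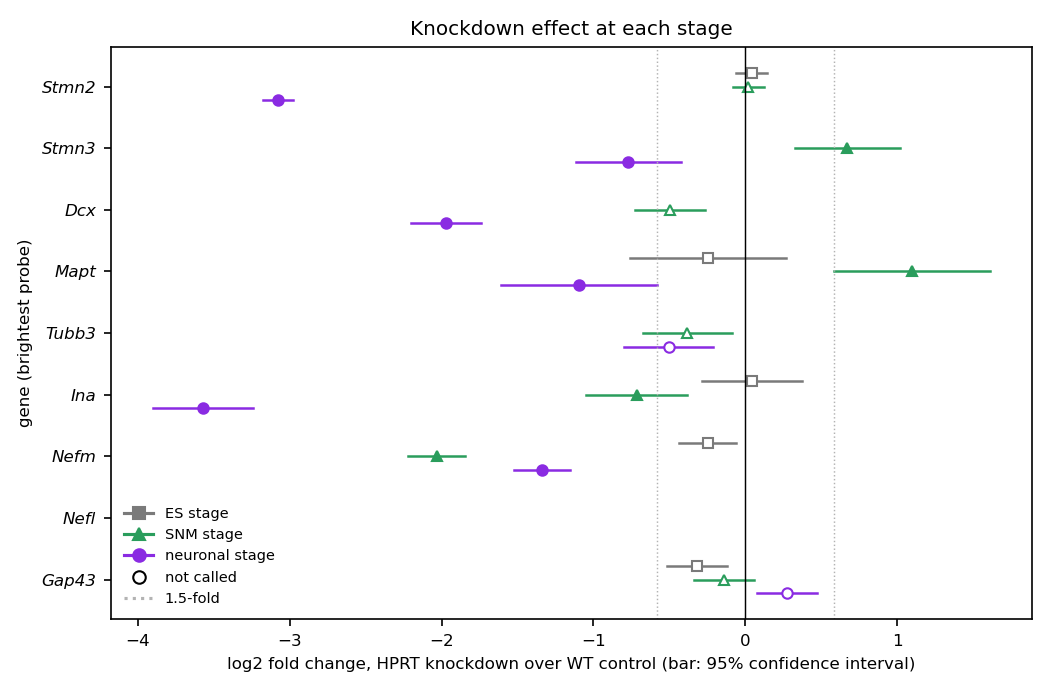
Log2 fold change of HPRT-knockdown over WT control cells (x axis) for the brightest probe of each gene (y axis) at the ES (grey squares), SNM (green triangles) and neuronal stage (purple circles), with 95% confidence intervals; filled symbols are called changes, dotted lines mark 1.5-fold, and pairs that could not be tested are not drawn. At the neuronal stage the changes run from -3.57 for Ina to 0.28 for Gap43.

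Seen by stage, the step from ES to SNM was a shared rise. In control cells 7 of 8 tested members were called, all higher, with 23.7% of all tested probes higher, and Tubb3 (log2 change 0.30) was the one not called. In knockdown cells 6 of 7 were called higher, with 26.4% of all tested probes higher, and Ina was the exception. The log2 rises in control cells ran from 0.74 for Ina to 4.78 for Dcx among the called genes, and in knockdown cells from 0.75 for Stmn2 to 4.33 for Dcx. Dcx, Stmn3 and Gap43 gained over 3 log2 units in both cell types. So did Nefm in control cells and the brightest Mapt probe in knockdown cells, whereas Stmn2 gained under 1.

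The last step, from SNM to neuronal cells, separated the cell types. In control cells 5 of 8 tested members were called higher (Mapt, Stmn2, Stmn3, Ina and Dcx) and Nefm lower, with 14.3% of all tested probes higher and 15.1% lower. In knockdown cells 1 of 7 was called higher (Gap43) and 4 lower (Stmn2, Ina, Nefm and Dcx), with 13.8% and 14.8% of all tested probes higher and lower. Both counts take the brightest probe of each gene, and the Mapt probes differed over this step. The second Mapt probe gained 1.43 log2 units in knockdown cells, a called rise, and changed by -0.16 in control cells, not called. The third Mapt probe was called higher in control cells (0.64) and not called in knockdown cells (-0.08). The change of the knockdown effect itself between these stages was called negative for 5 of 8 genes, where 14.8% of all tested probes were: its log2 value was -3.09 for Stmn2, -2.85 for Ina, -2.19 for Mapt, -1.47 for Dcx and -1.44 for Stmn3. The Mapt value is that of the brightest probe, since the second Mapt probe changed by 1.58 in the opposite direction (adjusted p = 0.000191 from limma) and the mean over the Mapt probes by -0.44, not called. The change was called positive for 1 gene, Nefm (0.69), where 13.7% of all tested probes were. Between the ES and SNM stages the knockdown effect fell by 1.78 for Nefm and 0.76 for Ina. It rose by 1.34 for the brightest Mapt probe, and by 0.41 and 0.43, not called, for Mapt probes 2 and 3. By the brightest probe, 2 of 8 genes were thus called negative and 1 positive, with 9.61% and 11.7% of all tested probes.

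The order of the 6 conditions, by the brightest probe of each gene, differed between genes. Control neuronal cells had the highest level of Stmn2, Stmn3, Dcx, Ina and Mapt, with no overlap with the next condition, whereas the second Mapt probe was highest in knockdown neuronal cells (mean 7.19, against 5.21 in control neuronal cells). For Nefm control SNM cells and for Gap43 knockdown neuronal cells stood highest. Knockdown neuronal cells had the lowest level of Stmn2 and Ina, below both ES conditions, and for Nefm they overlapped with knockdown ES cells at the bottom. For Dcx and Stmn3 they kept levels far above ES cells. Knockdown SNM and control SNM cells overlapped for Stmn2 and Gap43, and the 2 ES conditions overlapped for Stmn2, Stmn3, Dcx, Ina and Mapt but not for Gap43 or Nefm. All neighbouring conditions overlapped for Tubb3 and Nefl.

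Other genes of the same machinery were counted from lists, to be read beside the 13.5% of all tested probes called lower and 13.9% called higher at the neuronal stage, and the 8.9% and 11% at the SNM stage. Of the listed tubulins and microtubule-associated proteins, 6 of 17 tested were called lower and 2 higher in knockdown cells at the neuronal stage, with a median log2 difference of -0.10. The lower ones included Mtap6 (-1.63), a protein of cold-stable microtubules, and the stathmin Stmn1 (-1.48). The higher ones were Tubb4 (1.93), a beta-tubulin, and Tppp3 (1.95), a tubulin polymerisation promoting protein. In SNM cells 5 of 17 were called, all higher, among them Tppp3 (1.58), the microtubule end-binding protein Mapre3 (1.01), Dclk1 (0.97), a relative of Dcx, and the stathmin Stmn4 (0.72).

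The other intermediate filament genes on the list serve mostly cells other than neurons. In SNM cells 6 of 8 tested were called, all higher in knockdown cells (median 1.08), including Krt8 (2.89) and Krt18 (1.37) of simple epithelia, Gfap (1.75) of astrocytes and Vim (1.21), while Nefm and Ina were lower. In neuronal cells the filaments split, with Des (-5.90) of muscle and Nes (-1.97) of neural progenitors and myoblasts lower, and Gfap (1.61) and Prph (1.76) higher. Prph, peripherin, is a neuronal filament of peripheral and some central neurons, with a mean of 5.79 in control and 7.55 in knockdown neuronal cells, opposite to Ina and Nefm.

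Of the listed growth cone genes 4 of 22 tested were called lower and 3 higher at the neuronal stage (median -0.04), against 13.5% and 13.9% of all tested probes, so both counts lay near the background. Crmp1 (-1.84) and Dpysl5 (-1.56), of the collapsin response mediator family, and Rufy3 (-1.40), a regulator of axon formation, were lower, and Cntn2, an axonal adhesion molecule, was at least 1.82-fold lower. Nfasc (1.63) and Nrcam (1.49), adhesion molecules of axons that glia can also make, and Fez1 (0.74) were higher. In SNM cells 6 of 21 were called higher, led by Gpm6a (1.41) and Fez1 (1.02), and 1, Cntn2 (-0.78), lower.

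Among motor and kinase genes, Klc1 and Cdk5r1 turned from higher at the SNM stage to lower at the neuronal stage, as Stmn3 and the brightest Mapt probe did. Of the axonal transport genes, 4 of 15 were called lower at the neuronal stage, namely the kinesin light chain Klc1 (-1.92), the motor scaffold Mapk8ip2 (-1.35), the kinesin heavy chain Kif5c (-1.16) and the dynein chain Dync1i1 (-0.84), and 1, the kinesin Kif3c (0.72), higher, against 13.5% and 13.9% of all tested probes. Among SNM cells 4 of 15 were called, all higher, including Klc1 (0.83). Of the kinases and phosphatases that act on tau and neurofilaments, 2 of 13 were called lower at the neuronal stage, near the 13.5% of all tested probes. They were Cdk5r1 (-1.90), the activator of the neuronal kinase Cdk5, and Mapk8 (-1.44). Another 3 were higher, Ppp2r2b (1.59), Fyn (0.99) and Ppp2ca (0.59), beside 13.9% of all tested probes. Cdk5r1 was higher at the SNM stage (1.32) and its knockdown effect changed by -3.21 between the stages (adjusted p = 3.19e-10 from limma). At the ES stage limma called 0 of the 54 tested genes of these 5 lists, and the 10 with an adjusted p under 0.05 had log2 changes of at most 0.51 in size.

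Lists of other neuron markers and of markers of other cell types were read beside the members, and these lists moved in both directions. Other neuron markers were called lower in 9 of 15 tested genes and higher in 1 at the neuronal stage (median -0.92), where 13.5% and 13.9% of all tested probes were, with Myt1l (-3.73), Elavl4 (-2.29), Syt1 (-2.05) and Celsr3 (-1.85) lowest and Scg3 (0.87) higher, and Snap25, Nrsn1 and Tnrc4 were among those detected on no array of either cell type. Their mean log2 signal ranged over arrays from 7.90 to 8.03 in control and from 7.19 to 7.29 in knockdown neuronal cells, and that of the 9 cytoskeletal genes from 8.84 to 8.95 and from 7.49 to 7.62. Among SNM cells 6 of 15 other neuron markers were called higher, Syp (1.45) among them, where 11% of all tested probes were. Lower was 1 of them, Elavl4 (-0.61), which is near the 8.9% of all tested probes called lower.

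Skeletal muscle markers were present in control neuronal cultures, where all 17 were detected on all 3 arrays and their mean ranged from 11.58 to 11.63. In knockdown neuronal cultures it ranged from 5.16 to 5.41, 7 of the 17 were detected on all 3 arrays, and Tnnt3, Ckm, Myog, Myod1, Ttn, Chrna1 and Chrng were detected on none. Oligodendrocyte markers went the other way, from 6.40 to 6.45 in control to 10.30 to 10.34 in knockdown neuronal cultures, with 15 of 15 tested genes called higher, and Mog and Gm98 were among those detected on no control neuronal array. Astrocyte and radial glia markers averaged 8.99 to 9.09 and 10.08 to 10.20. Pluripotency markers, all 13 detected on every ES array, were lower in knockdown neuronal cells for 10 of 12 tested genes, and fibroblast markers for 8 of 12 (median -0.73). Of the neural crest and Schwann cell markers, which share Sox10 among others with the oligodendrocyte list, 5 of 8 were called higher and 1 lower. Over all tested probes at this stage 13.9% were called higher and 13.5% lower, and the 1 lower call of the last list lay near that share.

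These lists already differed between the cell types at the SNM stage, where Nefm and Ina were lower and Stmn3 and the brightest Mapt probe higher in knockdown cells. Of the oligodendrocyte markers 8 of 14 tested were called lower and 2 higher (median -0.95), where 8.9% and 11% of all tested probes were, with array means of 7.89 to 7.95 in control and 7.18 to 7.22 in knockdown cells. Of the muscle markers 13 of 16 were called, all higher (median 0.88), with array means of 6.43 to 6.59 and 7.44 to 7.52, and Ckm was detected on no array of either cell type. The astrocyte and radial glia markers were called higher for 8 of 14 and lower for 0, with a median of 0.69 and a mean over the 3 arrays of 9.16 in control and 10.05 in knockdown cells. The oligodendrocyte and muscle markers thus differed in the opposite direction to the neuronal stage. The part of these cultures' makeup in the differences of the cytoskeletal genes, at either stage, was not tested.

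**Figure D4:**
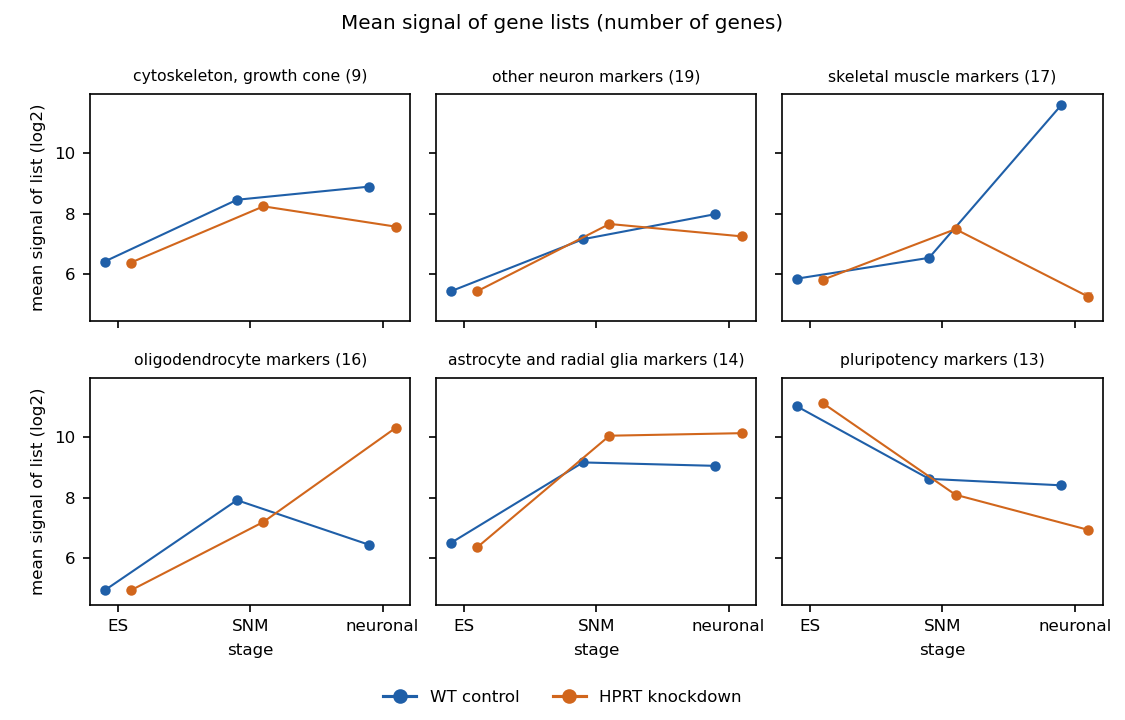
Mean log2 signal over the genes of each list (y axis), one probe a gene, by stage (x axis) for WT control (blue) and HPRT-knockdown cells (orange); points are means of 3 arrays, the thick bars behind them span the 3 array means and are mostly hidden by the points, and the number of genes stands in each panel's title. At the neuronal stage the cytoskeletal genes, other neuron markers and muscle markers lie lower in knockdown cells (array means 7.49 to 7.62, 7.19 to 7.29 and 5.16 to 5.41) and the oligodendrocyte markers higher (10.30 to 10.34).

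The members were compared with the rest of the array by the shape of their profile over the 6 condition means. The mean profile was taken over the 7 members with a detected range of at least 1 log2 unit, which leaves out Nefl and Tubb3. Among 9686 other genes of such a range, Cacna2d1 (Pearson r = 0.998), Col23a1 (0.997), Npy (0.997), Flywch2 (0.996), BC034090, Lhx1 and Thsd2 (0.994 each), 1190009E20Rik and Tro (0.993 each) and Palmd (0.992) were most like it. These are the highest of many correlations over 6 points that share stage and cell type, and they carry no test. Of the 7 members themselves Dcx was most like the mean profile (0.955) and Ina least (0.545). Each of them is part of that mean, so these values cannot be set against those of the other genes. Correlations between pairs of members ranged from -0.03 to 0.974 with a median of 0.486.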

How the data were processed

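The members and gene lists were chosen with earlier results of these data known. Total RNA of ESD3 control and HPRT-knockdown cells at 3 stages, pooled per condition from replicate cultures, was labelled with biotin and hybridised to Illumina mouse bead arrays, 3 per condition. The authors deposited an average signal intensity per probe, not normalized, with a detection p-value per probe and array. Per the study's methods, Illumina's BeadArray software quantified the array images, and its version is not given in the sources used here. A further 72 value columns of the deposited tables match no sample label and were not used. No other table of processed values was used, and the depth of an array is given by its probes above background.

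In R 4.3.3 with limma 3.58.1, signals were background-corrected from the detection p-values, offset by 16, quantile-normalized and taken to log2 (neqc), so folds of dim probes are understated. A gene with several probes was represented by the brightest. One model of 6 conditions over 18 arrays was fitted to all probes. A probe was tested in a comparison where at least 1 condition of that comparison detected it on all 3 arrays, and p-values were adjusted by Benjamini-Hochberg over all tested probes. Where a probe was detected on no array of one condition, the fold is given as a bound from the lowest detected signal. An exact two-sided permutation test of 3 against 3 arrays cannot go below p = 0.1. The calls were also tried on simulated neuronal-stage arrays with known changes, placed only in probes well above background. That trial does not cover dim members such as Tubb3. Genes named outside the members are up to 4 per list and comparison with the largest called changes, those opposed to the members, and the 10 most alike in profile. Where 5 or fewer were called in a direction, the others named were chosen after their values were seen. Arrays of the same number deviated together in every pair at the SNM stage (r = 0.486, 0.108 and 0.489) and the neuronal stage, weakly for number 2. At the ES stage r was -0.09, 0.03 and 0.10, and at the neuronal stage 0.606, 0.094 and 0.325, and number 2 was more like an array of another number at the SNM (0.191) and neuronal stage (0.402). The numbers come from the sample titles and no label says that they mark a shared batch. Alternatives were 2 other scalings, no scaling, no detection filter, a 2-fold limit, array number as a block, only the compared arrays, the methods' t-test, the mean over probes, and leaving out each array. Some single genes of the marker lists are not reported here by name.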

Additional observations from a re-analysis of the deposited data

Results flagged for a closer look

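The effect of the knockdown was called as different between stages for 6 members, with all 3 arrays of each condition. A call needed an adjusted p under 0.05 in limma and a change of at least 1.5-fold. From the SNM to the neuronal stage it changed by -3.09 on the log2 scale for Stmn2, by -1.44 for Stmn3, by -1.47 for Dcx, by -2.85 for Ina and by -2.19 for the brightest Mapt probe, and by 0.69 for Nefm. The second Mapt probe changed by 1.58 in the opposite direction and the mean over the Mapt probes by -0.44, not called. From the ES to the SNM stage the effect changed by -0.76 for Ina, by -1.78 for Nefm and by 1.34 for the brightest Mapt probe. Mapt probes 2 and 3 changed by 0.41 and 0.43 between these stages, neither of them called. The adjusted p-values of the called changes from limma ranged from 3.05e-15 for Stmn2 to 0.0114 for Ina between ES and SNM. Some changes had an adjusted p under 0.05 from limma but stayed under 1.5-fold. They were Dcx (-0.45) and Tubb3 (-0.54) from ES to SNM and Gap43 (0.42) from SNM to the neuronal stage. No condition had enough arrays for a search for single outlying arrays.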

How the results depend on the processing

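The direction of every called member change was kept under each alternative run for it (the methods' t-test was not run on the changes of the knockdown effect between stages) except for Mapt at the neuronal stage, where the mean over its probes turned the knockdown effect from -1.10 to 0.20. With signals left without background correction, under quantile or 75th percentile scaling, 1 member in place of 2 was called higher at the SNM stage (Stmn3 was lost). With a 2-fold limit 1 was called higher and 1 lower there, and over the last step 3 in place of 5 were called higher in control cells and 0 in place of 1 in knockdown cells. With that limit the change of the knockdown effect was called negative for 1 in place of 2 members between ES and SNM and positive for 0 in place of 1 between SNM and the neuronal stage. It also ended the calls of Stmn3 at the neuronal stage (-0.77, leaving 5 of 8 lower), of Stmn2 (0.77) and Ina (0.74) in control and Stmn2 (0.75) in knockdown cells from ES to SNM, and of Dcx over the last step in knockdown cells (-0.63). By the methods' t-test with Benjamini-Hochberg adjustment 1 in place of 2 members was called lower at the SNM stage. With the same adjustment Ina at the SNM stage and Mapt at the neuronal stage lost their calls (adjusted p = 0.0653 and 0.052). Without background correction Dcx in knockdown cells over the last step (-0.57 and -0.53) and, under 75th percentile scaling, Stmn2 in knockdown cells from ES to SNM (0.43) fell short of 1.5-fold, and without scaling Tubb3 was called at the neuronal stage (-0.59). With the mean over probes the change of the Mapt effect over the last step was -0.44 and not called. The replicate block changed no member call, with a neuronal difference of -3.07 for Stmn2. Leaving out 1 array gave 2 to 3 negative changes of the effect between ES and SNM, the third being Tubb3 without the first knockdown SNM (-0.65), the second knockdown ES (-0.72) or the second control SNM array (-0.59), and 3 to 4 members lower over the last step in knockdown cells, where Dcx was -0.58 without the second knockdown SNM array. Over all probes, without scaling, the median change from ES to SNM shifted by 0.275 in control and 0.234 in knockdown cells, and the share of calls that were higher went from 48.35% to 68.37% and from 46.07% to 59.97%, and at the ES stage from 30.65% to 55.56%. Counts over all probes left 1.5 times the count in 17 of 18 cases with a 2-fold limit, 13 with uncorrected quantile scaling and 11 with uncorrected 75th percentile scaling. Signal near background limits Tubb3, Nefl and the ES values of Stmn3 and Dcx.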
